A study of Mus musculus with 10 samples.

Results

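Expression of the 2 corticosteroid receptor genes, of 1 enzyme that supplies their ligand and of 7 glucocorticoid target genes was described in mouse brain. The 10 genes were taken from a list of names (Nr3c1, Nr3c2, Hsd11b1, Fkbp5, Sgk1, Tsc22d3, Zbtb16, Hif3a, Plin4 and Pdk4) and matched by Ensembl identifier among the 47729 genes of the deposited count table. RNA sequencing had been done on CF1 mice (strain entry crlfcen:CF1) of postnatal day 56, with no group represented by more than 1 library. Prefrontal cortex (PFC) and hippocampus (HPC) were sampled in males and females and hypothalamus (HYP) in males, each after a normal-protein (NP) and a low-protein (LP) diet, so that 10 libraries formed 5 LP and NP pairs. Both parents received the NP or LP diet at mating, and the dam continued on it through pregnancy and nursing. All groups shared the NP diet before mating and again for 5 weeks after weaning at day 21, so no animal was on LP when the tissue was taken. The labels do not say whether a library is 1 animal or a pool, nor whether regions share animals. P-values therefore measure the spread between these libraries only. If regions share animals, p-values for diet or sex that pool regions are too small, and the comparisons between regions leave that sharing unmodelled.

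Corticosterone, the main glucocorticoid of mice, acts in brain through the mineralocorticoid receptor, which binds it with high affinity, and the glucocorticoid receptor, which binds it with lower affinity and is occupied mainly during stress and at the daily peak of secretion. Both receptors wait in the cytoplasm in a chaperone complex, move to the nucleus once bound and attach as dimers to glucocorticoid response elements, palindromic DNA motifs, where they raise or lower transcription. Their target genes are widely used as a readout of hormone action, and hippocampus is the classical site of high mineralocorticoid receptor expression.

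The consensus response element was searched in the 250 bases before annotated transcript starts, because the target genes were listed for their response to this receptor. RefSeq promoter windows (GRCm38.p6) of 8 of the 10 genes were searched, 15 windows in all. No window of Nr3c1 or Zbtb16 was searched among them, so the counts of member windows do not cover these genes. The palindrome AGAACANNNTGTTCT, which reads the same on both strands, was found in 1 of the 15, before a start of Sgk1 inside its annotated gene, and in 3 of the 32851 windows of all genes (0.00913%). The hexamer TGTTCT, 1 arm of the palindrome, was searched on both strands (AGAACA on the other) and was found in 4 windows of 2 genes, 3 of Sgk1 and 1 of Tsc22d3. It was in 16.1% of all windows, and each palindrome also counts as a hexamer match. The Sgk1 window with the palindrome (chr10:21993640-21993889, plus strand, palindrome starting at -189 from the transcript start) and the Tsc22d3 window (chrX:140600523-140600772, minus strand, hexamer at -185) are shown because they carry the matches of the most and the second most abundant target per length in hippocampus. Capitals mark the palindrome and hexamers.
Sgk1: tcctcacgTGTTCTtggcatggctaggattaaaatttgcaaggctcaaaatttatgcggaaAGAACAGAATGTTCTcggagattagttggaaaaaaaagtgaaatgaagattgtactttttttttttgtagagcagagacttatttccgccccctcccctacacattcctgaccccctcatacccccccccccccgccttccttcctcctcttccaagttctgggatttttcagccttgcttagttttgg
Tsc22d3: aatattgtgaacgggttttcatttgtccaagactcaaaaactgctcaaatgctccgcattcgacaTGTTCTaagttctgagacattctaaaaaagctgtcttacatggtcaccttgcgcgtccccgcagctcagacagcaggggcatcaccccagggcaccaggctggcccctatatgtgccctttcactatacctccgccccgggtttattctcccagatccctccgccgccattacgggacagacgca
A match describes letters in this window and is no measured binding site.

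Total counts ranged from 10256882 to 16265481 in 9 libraries, where 3 counts, the limit that a count of 0 allows, correspond to 0.184 to 0.292 CPM (counts scaled to a common library size). The female NP hippocampus library held 7871010 counts and none on chromosome 4 past Park7, on autosomes 5 to 9 or on X, Y and M, so the 5 members placed there (Nr3c2, Tsc22d3, Hif3a, Zbtb16 and Pdk4) were treated as not measured in it. Region labels were checked with marker genes. Summed hippocampal markers reached 521 to 575 CPM in the hippocampus libraries against 86.1 to 138 CPM in the others, hypothalamic markers 439 to 787 CPM in hypothalamus against 0.827 to 1.84 CPM, and neocortical markers 325 to 363 CPM in prefrontal cortex against 61.7 to 144 CPM. Summed pituitary markers, which belong to none of these regions, were 555 CPM in the male NP hippocampus library and 1.04 to 10.3 CPM in the other hippocampus libraries. All levels below are CPM scaled by TMM, a correction for library composition, and CPM per kb divides by the length of the gene's merged exons.

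The receptors were distributed differently over the brain: Nr3c2 stood far higher in hippocampus than elsewhere, whereas Nr3c1 was more even and lowest in prefrontal cortex. Nr3c2, the mineralocorticoid receptor gene (ENSMUSG00000031618, GRCm38 chromosome 8, 76899442 to 77245012, plus strand), had 227, 239 and 215 CPM in hippocampus (male NP, male LP, female LP). In prefrontal cortex it had 29.7, 31.2, 26.1 and 27.1 CPM (male NP, male LP, female NP, female LP), and in hypothalamus 21.5 (NP) and 23.1 CPM (LP). Every hippocampal library was above every other library, and the hypothalamic pair was below all 4 prefrontal libraries. The difference was 7.72-fold between hippocampus and prefrontal cortex (log2 2.95 ± 0.05 SE, adjusted p = 6.05e-14, edgeR) and 10.5-fold between hippocampus and hypothalamus (log2 -3.39 ± 0.07 for hypothalamus, adjusted p = 4.56e-14). Hypothalamus was also 1.35-fold below prefrontal cortex (log2 -0.44 ± 0.07, adjusted p = 0.000124). In bulk tissue, fewer cells of a type and less RNA per cell cannot be told apart, here or in any result below. Exons of Nr3c2 share 247 bases with the opposite-strand transcript Gm10649, which had 0.416 to 3.62 CPM, and whether counting used strand is not given.

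Nr3c1, the glucocorticoid receptor gene (ENSMUSG00000024431, chromosome 18, 39410545 to 39519421, minus strand), had 61.8, 48.2, 58.4 and 60.0 CPM in prefrontal cortex. It had 83.6, 75.2, 70.4 and 70.5 CPM in hippocampus, in the same order of libraries, and 75.2 and 87.4 CPM in hypothalamus. The prefrontal libraries lay below all others, while hippocampus and hypothalamus overlapped. Nr3c1 was 1.31-fold higher in hippocampus (log2 0.39 ± 0.08, adjusted p = 0.00133) and 1.41-fold higher in hypothalamus (log2 0.50 ± 0.11, adjusted p = 0.000876) than in prefrontal cortex. The difference between hypothalamus and hippocampus did not pass (log2 0.11 ± 0.10, adjusted p = 0.384).

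Set side by side per length, the receptors changed places between regions. In hippocampus Nr3c2 had 35.1 ± 1.86 CPM per kb (SD, n = 3) and Nr3c1 9.75 ± 0.808 (n = 4). In prefrontal cortex Nr3c2 had 4.41 ± 0.362 and Nr3c1 7.43 ± 0.796 CPM per kb (n = 4 each), and in hypothalamus 3.44 ± 0.181 and 10.6 ± 1.12 (n = 2 each). Their ranges did not overlap within any region, with Nr3c2 above Nr3c1 in hippocampus and below it in prefrontal cortex and hypothalamus. Among the 10 genes, Nr3c2 thus had the highest mean CPM per kb of hippocampus, but in prefrontal cortex and hypothalamus that place went to Tsc22d3, at 27.1 CPM per kb in both.

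**Figure D1:**
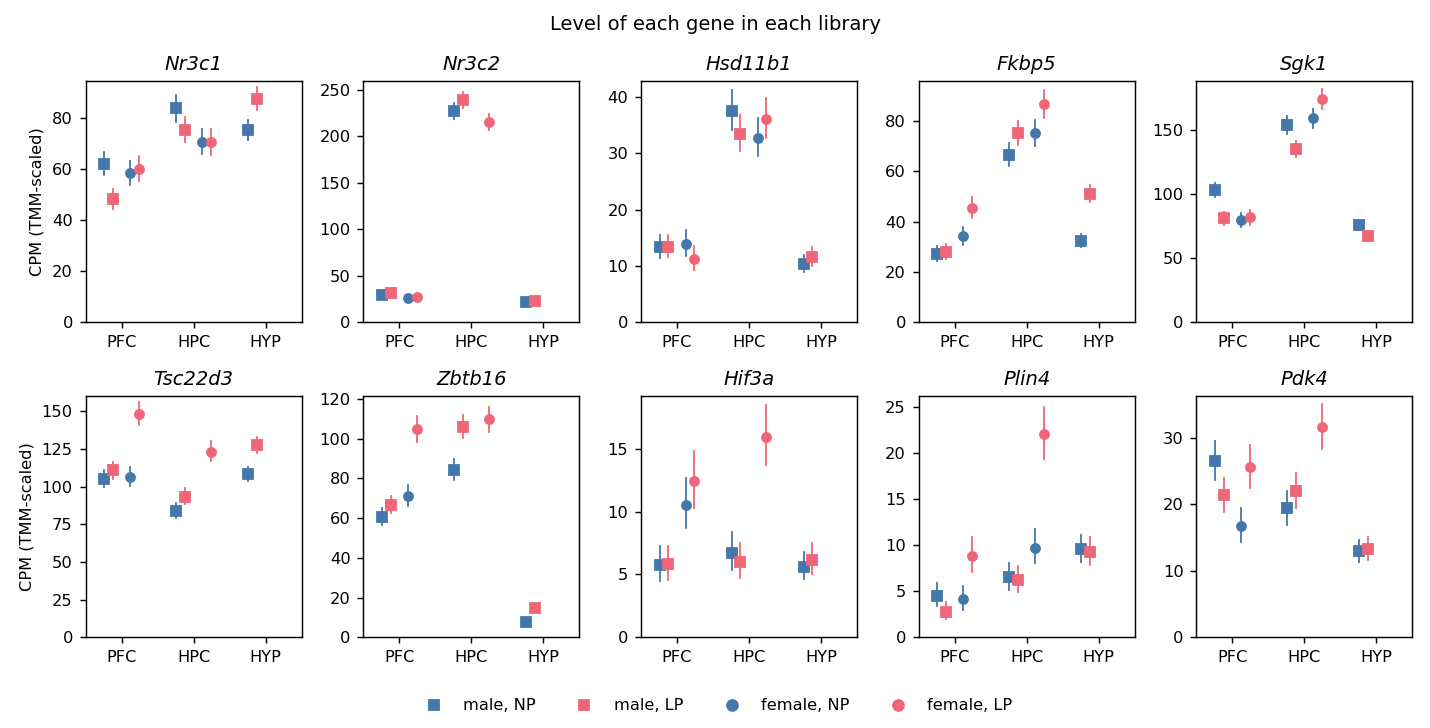
Level of each of the 10 genes (vertical axis, TMM-scaled CPM, linear and starting at 0) in each library by region (horizontal axis). Squares are males, circles females, blue NP and red LP; bars are exact 95% Poisson intervals of the count and cover counting error only. Nr3c2 stands at 215 to 239 CPM in hippocampus and at 21.5 to 31.2 CPM elsewhere; the female NP hippocampus point is missing for the 5 genes not measured there.

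Hsd11b1, whose enzyme regenerates active corticosterone from its inert keto form inside cells (ENSMUSG00000016194, chromosome 1, 193221634 to 193264075, minus strand), followed the mineralocorticoid receptor. It had 37.5, 33.5, 32.7 and 36.1 CPM in hippocampus, 13.3, 13.4, 14.0 and 11.3 CPM in prefrontal cortex, and 10.4 and 11.6 CPM in hypothalamus. All hippocampal values exceeded all others, by 2.67-fold over prefrontal cortex (log2 1.42 ± 0.08, adjusted p = 6.67e-09) and 3.22-fold over hypothalamus (log2 -1.69 ± 0.11 for hypothalamus, adjusted p = 7.52e-09). Prefrontal cortex and hypothalamus overlapped (log2 -0.27 ± 0.12, adjusted p = 0.0637). The opposing enzyme gene Hsd11b2, which inactivates corticosterone, had at most 5 counts in any library (0 to 0.297 CPM) and was below the filter on low counts. H6pd, which supplies the cofactor for Hsd11b1, had 6.72 to 8.95 CPM and passed in none of the region comparisons (hippocampus against prefrontal cortex log2 0.19 ± 0.12, adjusted p = 0.188).

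Of the 7 targets, 6 had their highest regional mean in hippocampus, all but Tsc22d3. For Plin4, Pdk4 and Hif3a this rested on the female LP library alone. In male hippocampus (NP and LP), Pdk4 had 19.4 and 22.0 CPM against a prefrontal mean of 22.5. Hif3a had 6.73 and 5.99 CPM there against a prefrontal mean of 8.61. Zbtb16 had the widest difference between hypothalamus and the other regions. Fkbp5, a co-chaperone that lowers the receptor's affinity for hormone and is itself induced by it (ENSMUSG00000024222, chromosome 17, 28399094 to 28517527, minus strand), had 66.4, 75.0, 75.0 and 86.6 CPM in hippocampus. It had 27.1, 27.9, 34.2 and 45.4 CPM in prefrontal cortex, and 32.3 and 50.9 CPM in hypothalamus. Hippocampus lay above both other regions, which overlapped. The difference was 2.27-fold against prefrontal cortex (log2 1.19 ± 0.09, adjusted p = 1.10e-07) and 1.63-fold against hypothalamus (log2 -0.70 ± 0.12 for hypothalamus, adjusted p = 0.000115). The call for hypothalamus over prefrontal cortex (log2 0.48 ± 0.12, adjusted p = 0.00338) was lost without the LP hypothalamus library (log2 0.24, adjusted p = 0.124).

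Sgk1, a kinase that the hormone induces and that regulates ion channels and transporters (ENSMUSG00000019970, chromosome 10, 21882184 to 21999903, plus strand), had 154, 135, 159 and 175 CPM in hippocampus. Prefrontal cortex had 103, 81.3, 80.1 and 82.0 CPM and hypothalamus 76.0 and 67.3 CPM. The 3 regions did not overlap on the TMM scale. Hippocampus exceeded prefrontal cortex 1.79-fold (log2 0.84 ± 0.08, adjusted p = 1.45e-06) and hypothalamus 2.14-fold (log2 -1.10 ± 0.11 for hypothalamus, adjusted p = 1.17e-06). Hypothalamus against prefrontal cortex was log2 -0.26 ± 0.11 (adjusted p = 0.0585), which passed with DESeq2 (adjusted p = 0.0413).

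Zbtb16, a zinc-finger transcription factor induced by steroids (ENSMUSG00000066687, chromosome 9, 48654297 to 48836222, minus strand), had 60.7, 66.7, 71.3 and 105 CPM in prefrontal cortex and 84.1, 106 and 110 CPM in hippocampus (male NP, male LP, female LP). The hypothalamus libraries had 7.60 and 14.9 CPM, below every other library. The hypothalamic level was 6.16-fold below prefrontal cortex (log2 -2.62 ± 0.16, adjusted p = 4.08e-09) and 8.11-fold below hippocampus (log2 -3.02 ± 0.16, adjusted p = 6.41e-10). Hippocampus and prefrontal cortex overlapped. Their difference (log2 0.40 ± 0.11, adjusted p = 0.00585) was lost with DESeq2 (adjusted p = 0.103), without the male LP prefrontal library (0.0972) and without the male NP hippocampus library (0.0731).

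Tsc22d3, which encodes the glucocorticoid-induced leucine zipper protein (ENSMUSG00000031431, chromosome X, 140539528 to 140600659, minus strand), was the flattest of the strongly expressed targets. It had 105, 111, 106 and 148 CPM in prefrontal cortex, 84.1, 93.4 and 123 CPM in hippocampus, and 108 and 127 CPM in hypothalamus, and all 3 regions overlapped. The fit, which holds sex and diet constant, placed hippocampus 1.18-fold below prefrontal cortex (log2 -0.23 ± 0.07, adjusted p = 0.0105) and hypothalamus 1.30-fold above hippocampus (log2 0.38 ± 0.08, adjusted p = 0.000939). The former missed the threshold without the male LP hippocampus library (adjusted p = 0.0519) or the female LP prefrontal library (0.0515).

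Plin4, a lipid droplet coat protein gene (ENSMUSG00000002831, chromosome 17, 56100591 to 56109803, minus strand), was among the least abundant. It had 4.47, 2.75, 4.12 and 8.78 CPM in prefrontal cortex, 6.48, 6.15, 9.72 and 22.0 CPM in hippocampus, and 9.53 and 9.27 CPM in hypothalamus. The female LP library stood highest in hippocampus, as it did in prefrontal cortex, and hippocampus and hypothalamus overlapped. Plin4 was 2.15-fold higher in hippocampus (log2 1.11 ± 0.25, adjusted p = 0.00215) and 3.03-fold higher in hypothalamus (log2 1.60 ± 0.32, adjusted p = 0.000539) than in prefrontal cortex. With sex and diet held constant, hypothalamus against hippocampus was log2 0.49 ± 0.29 (adjusted p = 0.161), which passed without the female LP hippocampus library (log2 0.62, adjusted p = 0.0356). Plin4's exons share 17 bases with the opposite-strand gene Hdgfl2, which had 83.8 to 108 CPM.

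Pdk4, a kinase that restrains the use of glucose by pyruvate dehydrogenase (ENSMUSG00000019577, chromosome 6, 5483351 to 5496309, minus strand), had 26.5, 21.3, 16.8 and 25.5 CPM in prefrontal cortex and 19.4, 22.0 and 31.6 CPM in hippocampus. In hypothalamus it had 12.9 and 13.3 CPM, below all others, which was 1.65-fold below prefrontal cortex (log2 -0.72 ± 0.19, adjusted p = 0.00468) and 1.74-fold below hippocampus (log2 -0.80 ± 0.20, adjusted p = 0.00268). Hippocampus and prefrontal cortex overlapped, and their difference did not pass (log2 0.08 ± 0.16, adjusted p = 0.694). Hif3a, a hypoxia-inducible factor subunit gene that also responds to glucocorticoids (ENSMUSG00000004328, chromosome 7, 17031507 to 17062427, minus strand), passed in none of the region comparisons (hippocampus against prefrontal cortex log2 0.29 ± 0.13, adjusted p = 0.0732).

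Counted over the members, 7 were higher and 1 lower in hippocampus than in prefrontal cortex, where 53.4% of the 17550 genes tested passed in either direction. Of all genes 27.3% were higher and 26.1% lower. Hypothalamus against prefrontal cortex gave 3 higher and 3 lower members at a background of 63.6% (33.2% higher, 30.5% lower). Hypothalamus against hippocampus gave 1 higher (Tsc22d3) and 6 lower at 60.3% (30.4% higher, 29.9% lower). The members' median difference was log2 0.62, -0.07 and -0.75 in these comparisons, against -0.0045, 0.0206 and 0.0106 over all genes tested. Hippocampus held the highest mean CPM of 8 of the 10 genes, or 7 when libraries were scaled by totals alone, where Plin4 was highest in hypothalamus. For Plin4, Pdk4 and Hif3a that place rested on the female LP library alone. The TMM factors were 1.148 and 1.145 in hypothalamus against 0.9436 to 0.9761 elsewhere, so hypothalamic levels by totals alone are higher than those given here. Cell type markers differed with region as well. Summed neuronal markers were 2583 to 2698 CPM in hypothalamus against 9931 to 10668 CPM elsewhere. Camk2a alone was at 428 and 445 CPM in hypothalamus against 5244 to 5601 CPM elsewhere. The 9 neuronal markers did not share a direction: 6 were lower and 3 higher in hypothalamus than in hippocampus, and 6 lower and 2 higher than in prefrontal cortex. Summed oligodendrocyte markers were 1142 to 1846 CPM in prefrontal cortex, 3607 to 4449 in hippocampus and 2341 to 3082 in hypothalamus. Their part in the region differences was not tested, and hypothalamus had male libraries only.

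**Figure D2:**
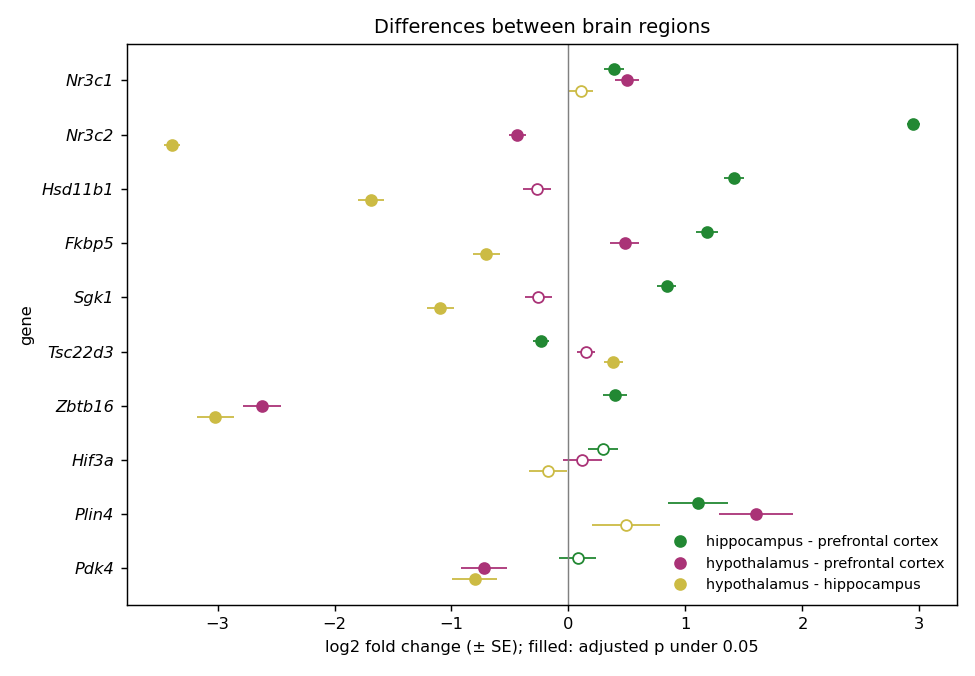
Log2 fold change between regions for each gene with its standard error (horizontal axis) from the edgeR fit with sex and diet as terms; filled points have an adjusted p under 0.05. Nr3c2 and Zbtb16 span the widest range, with Nr3c2 at 2.95 for hippocampus against prefrontal cortex and Zbtb16 at -3.02 for hypothalamus against hippocampus.

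Counts for other genes of the pathway are to be read beside the shares of all genes called between regions. Of the receptor coregulators, 12 of 20 were higher and 3 lower in hippocampus than in prefrontal cortex, among them Ncoa1, a steroid receptor coactivator (log2 0.67 ± 0.04, adjusted p = 1.01e-08), and Nrip1, a corepressor of nuclear receptors (1.04 ± 0.10, adjusted p = 7.70e-07). In hypothalamus 15 of 20 were lower and 3 higher than in hippocampus (all genes 29.9% and 30.4%). Of the chaperone complex, 9 of 20, the member Fkbp5 included, were higher and 3 lower in hypothalamus than in prefrontal cortex. In this comparison 63.6% of all genes were called. Fkbp4, the co-chaperone that competes with Fkbp5, was at 0.67 ± 0.06 (adjusted p = 4.52e-07) and Hsp90aa1, which encodes an HSP90 protein, at 0.83 ± 0.09 (adjusted p = 1.48e-06). Other glucocorticoid-induced genes had no common regional direction: 11 of 38 were higher and 17 lower in hippocampus than in prefrontal cortex. Rasd1, a small G protein gene first described as dexamethasone-induced, was higher there (2.89 ± 0.13, adjusted p = 2.98e-10) and the cell cycle inhibitor Cdkn1a lower (-2.61 ± 0.14, adjusted p = 1.98e-09). Of the axis's peptides and receptors, 8 of 13 were lower and 1 higher in hippocampus than in prefrontal cortex, among them Crhr1, the receptor for corticotropin-releasing hormone (-1.99 ± 0.07, adjusted p = 2.28e-11). In the list of ligand access, 4 of 10, Hsd11b1 included, were higher in hippocampus and 0 lower (2 lower without the male LP prefrontal library), against 53.4% of all genes called; Cyp7b1, which hydroxylates neurosteroids, was one of them (1.33 ± 0.08, adjusted p = 1.26e-08).

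Over the libraries, the members fell into groups of like pattern, given here as a description over the 9 complete libraries, which share region and depth. Pearson correlations of log2 CPM were 0.991 between Nr3c2 and Hsd11b1, 0.947 between Sgk1 and Hsd11b1, and 0.942 between Nr3c2 and Sgk1, all high in hippocampus. Tsc22d3 ran the other way from Hsd11b1 (-0.54), and Nr3c1 correlated with Nr3c2 at 0.381. Among 10718 genes with a mean of at least 10 CPM, the nearest to Nr3c2 were Gm2115 (0.998), Shisa6 (0.997) and Cyfip1 (0.997). For Hsd11b1 they were Skida1 (0.995), Gm2115 (0.994) and Epha6 (0.993). Zbtb16 was nearest to Klf9 (0.997), itself a glucocorticoid-induced transcription factor gene, then Arhgap35 (0.994) and App (0.994), all low in hypothalamus. The nearest to Fkbp5 were Tnks (0.976), Arrdc4 (0.974) and Lix1l (0.968), to Sgk1 Fam19a5 (0.985), Ankdd1b (0.981) and Nectin3 (0.979), and to Nr3c1 Arhgap5 (0.985), Zfand6 (0.979) and Tm9sf3 (0.978). Likeness was lower for Pdk4, with Klhl21 (0.961), Zfp131 (0.941) and Rab5if (0.937), and for Tsc22d3, with Slc25a38 (0.918), Max (0.906) and Pcbp1 (0.896). Plin4 was nearest to Sdc4 (0.955), Ndc1 (0.878) and Gm5869 (0.869). Hif3a was nearest to Xist (0.955), the transcript of the inactive X chromosome of females, then Nat10 (0.926) and Eif2s3x (0.912).

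To examine the perinatal diet, the LP and NP libraries of the 5 pairs were set against each other. None of the 10 members passed edgeR's test, 3 had an unadjusted p under 0.05 (Zbtb16, Fkbp5 and Tsc22d3), DESeq2 called 1 (Zbtb16), and the background was 1.25% of 17797 genes, or 13.7% at an unadjusted p under 0.05. The members nearest to the threshold were 3 targets, each higher in the LP library of every pair in which it was measured. Zbtb16 had 60.7 CPM in NP and 66.7 in LP in male prefrontal cortex, 71.3 and 105 in female prefrontal cortex, 84.1 and 106 in male hippocampus, and 7.60 and 14.9 in hypothalamus. The 95% counting intervals of LP and NP were separate in 3 of these 4 pairs. The fitted difference was 1.34-fold (log2 0.43 ± 0.09, adjusted p = 0.0515); it passed with DESeq2 (adjusted p = 0.00900), with DESeq2 size factors in edgeR (0.0480), without the male prefrontal pair (log2 0.53, adjusted p = 0.0207) and without the hypothalamic pair (log2 0.35, 0.0274), and adjusted p reached 0.305 when another pair was left out.

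Fkbp5 had 27.1 CPM in NP and 27.9 in LP in male prefrontal cortex, 34.2 and 45.4 in female prefrontal cortex, and 66.4 and 75.0 in male hippocampus. In female hippocampus it had 75.0 and 86.6 CPM and in hypothalamus 32.3 and 50.9 CPM. LP exceeded NP in 5 of 5 pairs, with separate intervals in 3. The difference was 1.23-fold (log2 0.30 ± 0.07, adjusted p = 0.0806), and 0.35 with an adjusted p of 0.0395 without the male prefrontal pair. The other pairs left out gave adjusted p up to 0.283. Tsc22d3 had LP above NP by log2 0.07, 0.48, 0.15 and 0.23 in male and female prefrontal cortex, male hippocampus and hypothalamus. Intervals were separate in the female prefrontal and the hypothalamic pair, and the difference was 1.18-fold (log2 0.24 ± 0.06, adjusted p = 0.112).

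The fitted diet differences of the receptors and the enzyme were small. Nr3c2 was 0.05 to 0.11 higher on the log2 scale in LP in 4 of 4 pairs, with overlapping intervals in each, and its fitted difference was 0.08 ± 0.05 (adjusted p = 0.566). Nr3c1 was lower in LP in male prefrontal cortex (log2 -0.36) and male hippocampus (-0.15), higher in hypothalamus (0.22), and within 0.04 of NP in the female pairs, for a fitted -0.04 ± 0.07 (adjusted p = 0.842). Its intervals were separate in 2 of 5 pairs, male prefrontal cortex and hypothalamus, which had opposite signs. Hsd11b1 ranged from -0.31 to 0.16 over the pairs with overlapping intervals in all 5, for a fitted -0.02 ± 0.08 (adjusted p = 0.946). Sgk1 had a fitted -0.11 ± 0.06 (adjusted p = 0.462), with separate intervals in 4 of 5 pairs, LP being lower in the male pairs and higher in female hippocampus. Pdk4 had 0.10 ± 0.12 (adjusted p = 0.762) and Hif3a 0.08 ± 0.12 (adjusted p = 0.835).

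Within regions, the 5 members measured in all libraries could be tested. In prefrontal cortex 0 of 5 passed edgeR's test (1 at an unadjusted p under 0.05, Fkbp5; 0 with DESeq2; background 1.79%, or 13.2% unadjusted). In hippocampus 0 of 5 passed (2 unadjusted, Fkbp5 and Plin4; 0 with DESeq2; background 0.328%, or 5.84% unadjusted). The change of the diet difference from prefrontal cortex to hippocampus was passed by 0 of 5 (0 unadjusted, 0 with DESeq2; background 0%, or 5.36% unadjusted). Hippocampal Plin4 (log2 0.73 ± 0.26, adjusted p = 0.577) rested on the female pair: it was 1.17 (adjusted p = 2.92e-05) without the male pair and -0.07 without the female pair. The single hypothalamic pair has no test. There the intervals of 4 members were separate with LP higher (Zbtb16 at log2 0.95, Fkbp5 0.65, Tsc22d3 0.23 and Nr3c1 0.22) and of 1 with LP lower (Sgk1 -0.18), where 20% of genes with a mean of at least 1 CPM in the pair had separate intervals (11.8% higher, 8.21% lower). The bracketed code in the title of the LP hypothalamus library differs from those of the other 9 in a part whose meaning the labels do not give. Summed mural and meningeal markers were 396 CPM in that library and 200 CPM in its NP partner, and summed hypothalamic markers 439 and 787 CPM. In this pair 9 of 10 endothelial markers (median log2 0.65) and 10 of 10 mural and meningeal markers (median 1.08) were higher in LP; their part in these differences was not tested.

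**Figure D3:**
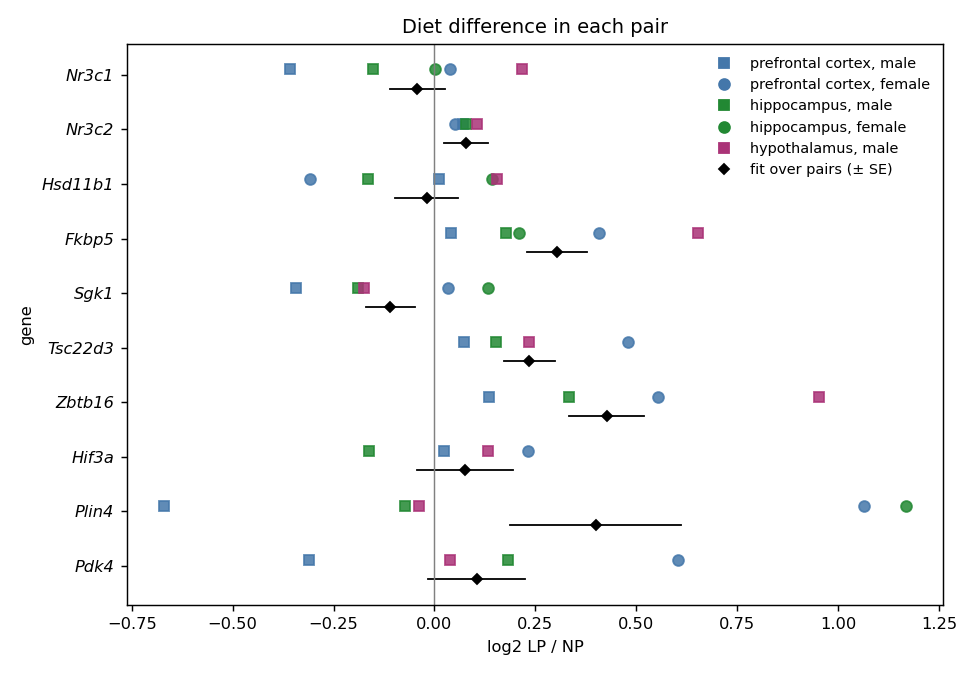
Log2 ratio of LP to NP for each gene in each pair (horizontal axis; squares male, circles female, colours regions) and the fit over the pairs with its standard error (black diamonds). Fkbp5, Zbtb16 and Tsc22d3 lie right of 0 in every measured pair, while Plin4 and Sgk1 have female points to the right and male points to the left.

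Plin4 and Sgk1 differed in sign between the sexes. Plin4 had 4.12 CPM in NP and 8.78 in LP in female prefrontal cortex (43 and 85 counts), and 9.72 and 22.0 CPM in female hippocampus (112 and 243 counts). In males it had 4.47 and 2.75 CPM in prefrontal cortex, 6.48 and 6.15 in hippocampus, and 9.53 and 9.27 in hypothalamus. The female intervals were separate, the male ones overlapped. In the 8 libraries of prefrontal cortex and hippocampus, a comparison added after these values were seen, the diet difference of Plin4 was log2 1.45 ± 0.26 larger in females (adjusted p = 0.0583). It passed with DESeq2 size factors in edgeR (adjusted p = 0.0442), without the male prefrontal pair (0.0443) or without the male hippocampus pair (log2 1.84, adjusted p = 0.000875), while leaving out a female pair gave adjusted p up to 0.932. For Sgk1 the difference was 0.34 ± 0.09 (adjusted p = 0.312), and 0.42 with an adjusted p of 0.00943 without the male hippocampus pair; for Nr3c1 it was 0.26 ± 0.10 (adjusted p = 0.658). In all, 0 of 5 members passed edgeR's test, 3 had an unadjusted p under 0.05, DESeq2 called 0, and the background was 0.173%, or 6.51% unadjusted. Counting members with separate intervals, 5 of 10 were higher in LP and 0 lower in female prefrontal cortex (background 7.92%, 5.1% higher and 2.82% lower). In female hippocampus 3 of 5 were higher and 0 lower (background 5.65%, 3.61% higher and 2.04% lower). Male prefrontal cortex had 0 of 10 higher and 2 lower (background 16.4%, 7.79% higher and 8.57% lower), and male hippocampus 1 higher and 1 lower (7.88%, 3.83% higher and 4.05% lower).

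The pathway around the members moved with diet in parts. Of 38 other glucocorticoid-induced genes tested, 6 rose in LP and 0 fell, with a median log2 difference of 0.15, where 0.871% of all genes rose and the median of all genes was -6e-04. Per1, a clock gene that neuronal activity also induces, rose from 240 to 299 CPM in male and from 235 to 312 in female prefrontal cortex, from 107 to 164 in male and from 113 to 139 in female hippocampus, and from 77.1 to 102 in hypothalamus. Its intervals were separate in each of the 5 pairs (log2 0.40 ± 0.05, adjusted p = 0.00106). Irs2, an adaptor of insulin signalling, rose by 0.61 ± 0.10 (adjusted p = 0.0103), Slc2a1, the glucose transporter of the blood-brain barrier, by 0.30 ± 0.05 (adjusted p = 0.00939), and Errfi1, a feedback inhibitor of the EGF receptor, by 0.33 ± 0.05 (adjusted p = 0.00972). Slc2a1 missed the threshold without the female prefrontal pair (adjusted p = 0.0617) and Errfi1 without the male hippocampus pair (0.0595). The count of 6 was 3 when either of these pairs was left out (with 2 lower genes without the female prefrontal pair) and 8 without the hypothalamic pair. Several classical targets did not pass: Klf9 had 0.14 ± 0.06 (adjusted p = 0.274), Mt2 -0.47 ± 0.10 (adjusted p = 0.0544) and Ddit4 -0.01 ± 0.05 (adjusted p = 0.970).

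In the list of ligand access, 1 of 10 genes rose and 0 fell. Cyp11a1, whose enzyme makes the first step of steroid synthesis from cholesterol, had 7 counts in NP and 33 in LP in male prefrontal cortex, 2 and 21 in female prefrontal cortex, 4 and 26 in male hippocampus, and 5 and 10 in hypothalamus. LP was higher in 4 of 4 pairs, all at low counts, and the difference was log2 2.27 ± 0.35 (adjusted p = 0.00966). The call was lost with DESeq2 (adjusted p = 0.0555), without the male hippocampus pair (0.0680) and without the female prefrontal pair (0.0622). In the chaperone complex 4 of 20 rose and 0 fell: the co-chaperone Dnajb1 by 0.98 ± 0.07 (adjusted p = 2.34e-05) and the HSP70 genes Hspa1b by 2.08 ± 0.30 (adjusted p = 0.00564), Hspa1a by 1.79 ± 0.26 (adjusted p = 0.00633) and Hspa8 by 0.22 ± 0.04 (adjusted p = 0.0119). Hspa1a and Hspa1b are near-identical copies, so their division of reads is uncertain, and Hspa8 was lost without the male hippocampus pair (adjusted p = 0.0835) or the female prefrontal pair (0.132). Among coregulators 1 of 20 rose (Tob1, a repressor of transcription and growth, 0.37 ± 0.05, adjusted p = 0.00602) and 0 fell. Among 13 peptides and receptors of the hypothalamic-pituitary-adrenal axis 1 rose and 1 fell. The prohormone convertase gene Pcsk1 rose by 0.38 ± 0.07 (adjusted p = 0.0285), lost without any of 3 pairs (highest adjusted p 0.158, without the female prefrontal pair). Avp, the vasopressin gene, had 289 CPM in NP and 153 in LP in hypothalamus and at most 0.521 CPM elsewhere, so its fall of log2 -0.92 ± 0.11 (adjusted p = 0.000651, 1.00 with DESeq2) comes from the single hypothalamic pair.

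Within regions, 4 of 30 glucocorticoid-induced genes rose in prefrontal cortex and 0 fell (background 1.79%), among them Slc2a1 (0.37 ± 0.07, adjusted p = 0.00701), Per1 (0.36 ± 0.07, adjusted p = 0.00956) and Cdkn1a (0.64 ± 0.13, adjusted p = 0.0199). The count was 0 with DESeq2, without a low-count filter and without the female prefrontal pair. It was 9 (with 3 lower) without either hippocampus pair and 7 (with 1 lower) without the hypothalamic pair. In hippocampus 1 of 30 rose, Per1 (0.45 ± 0.07, adjusted p = 0.00534), and 0 fell (background 0.328%). Hippocampal Per1 missed the threshold with DESeq2 (adjusted p = 0.0687), without a low-count filter (0.253) and without the male hippocampus pair (log2 0.28, adjusted p = 0.458). The diet difference was larger in females for 1 of 29 (Gjb6, a gap junction gene of astrocytes, 0.72 ± 0.11, adjusted p = 0.0181), at a background of 0.173%. Gjb6 missed the threshold with DESeq2 (adjusted p = 0.199), without a low-count filter (0.807) and without the female prefrontal (0.206) or hippocampus pair (0.546). The list's count was 2 without the male prefrontal pair and 5 without the male hippocampus pair. The diet difference was smaller in females for Hspa1b (-1.53 ± 0.21, adjusted p = 0.00926) and Hspa1a (-1.46 ± 0.22, adjusted p = 0.0199), 2 of 15 chaperone genes tested. Neither passed without a low-count filter (adjusted p = 0.997 and 1.00), without the female prefrontal pair (0.113 and 0.177) or without the female hippocampus pair (0.910 and 0.996).

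Other gene groups moved with diet over the same libraries. Of 20 immediate early genes, rapid transcriptional markers of neuronal activity, 15 rose and 0 fell (median log2 0.60), where 0.871% of all genes rose, and 6 rose without the female prefrontal pair. Of 5 blood markers 4, all of them globin genes with near-identical copies, fell and 0 rose (median -0.61), and of 12 oligodendrocyte markers 1 fell and 0 rose (median -0.30). Summed oligodendrocyte markers were lower in LP in 4 of 5 pairs, and in prefrontal cortex 7 of 8 fell, where 1.79% of all genes passed in either direction. Of 8 hypothalamic markers 4 fell and 0 rose, of 8 pituitary markers 2 fell and 0 rose, and of 11 choroid plexus markers 1 rose and 0 fell. Over all genes and pairs, 1.25% passed in either direction. Hypothalamic markers summed to 0.827 to 1.84 CPM outside hypothalamus, so their falls rest on the single hypothalamic pair. None of the 9 neuronal, 9 astrocyte, 9 microglial, 10 endothelial, 10 mural and meningeal, 8 hippocampal, 7 neocortical, 7 striatal or 6 thalamic markers passed. Their part in the values of Zbtb16, Fkbp5 and Tsc22d3 was not tested.

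Sex was compared within region and diet in the 8 libraries of prefrontal cortex and hippocampus. Hif3a was the single member that passed (background 0.465% of 17004 genes), 6 members had an unadjusted p under 0.05, as did 8.9% of all genes, and DESeq2 also called 1. Female libraries had 10.5 (prefrontal NP), 12.4 (prefrontal LP) and 16.0 CPM (hippocampus LP), and the male libraries 5.71, 5.80, 6.73 and 5.99 CPM (prefrontal NP and LP, hippocampus NP and LP). The hypothalamus libraries, also male, had 5.62 and 6.18 CPM. All 3 female values lay above all male values. The difference was 2.21-fold (log2 1.15 ± 0.14, adjusted p = 0.000181), with adjusted p of at most 0.00386 when any 1 library was left out. Counting intervals were separate in each of the 3 matched comparisons, with log2 differences of 0.88, 1.10 and 1.41.

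Other targets had higher female values that did not pass. Plin4 had log2 1.15 ± 0.23 (adjusted p = 0.0601), with -0.12 and 0.58 in the NP strata of prefrontal cortex and hippocampus and 1.68 and 1.84 in the LP strata. Its separate intervals were confined to the LP strata, and the test of that difference is the one given above. Tsc22d3 had 0.28 ± 0.07 (adjusted p = 0.0869), Fkbp5 0.33 ± 0.07 (adjusted p = 0.102) and Zbtb16 0.30 ± 0.08 (adjusted p = 0.141), with Fkbp5 higher in females in 4 of 4 strata and Tsc22d3 and Zbtb16 in 3 of 3. Leaving out single libraries brought some of these past the threshold. The NP prefrontal libraries of either sex did so for Tsc22d3 (adjusted p = 2.82e-05 without the male and 0.000187 without the female) and Plin4 (0.0156 and 0.0195), and the male one for Zbtb16 (0.0235). The NP hippocampus libraries did so for Fkbp5 (0.0433 without the male and 0.0437 without the female) and Plin4 (0.0101 each), and the LP hippocampus libraries for Zbtb16 (2.03e-05 and 2.17e-05). Nr3c2 had -0.18 ± 0.06 (adjusted p = 0.330), lower in females in 3 of 3 strata, and Nr3c1 -0.03 ± 0.07 (adjusted p = 0.941), Hsd11b1 -0.05 ± 0.08 (adjusted p = 0.900), Sgk1 0.04 ± 0.08 (adjusted p = 0.937) and Pdk4 0.07 ± 0.14 (adjusted p = 0.926).

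**Figure D4:**
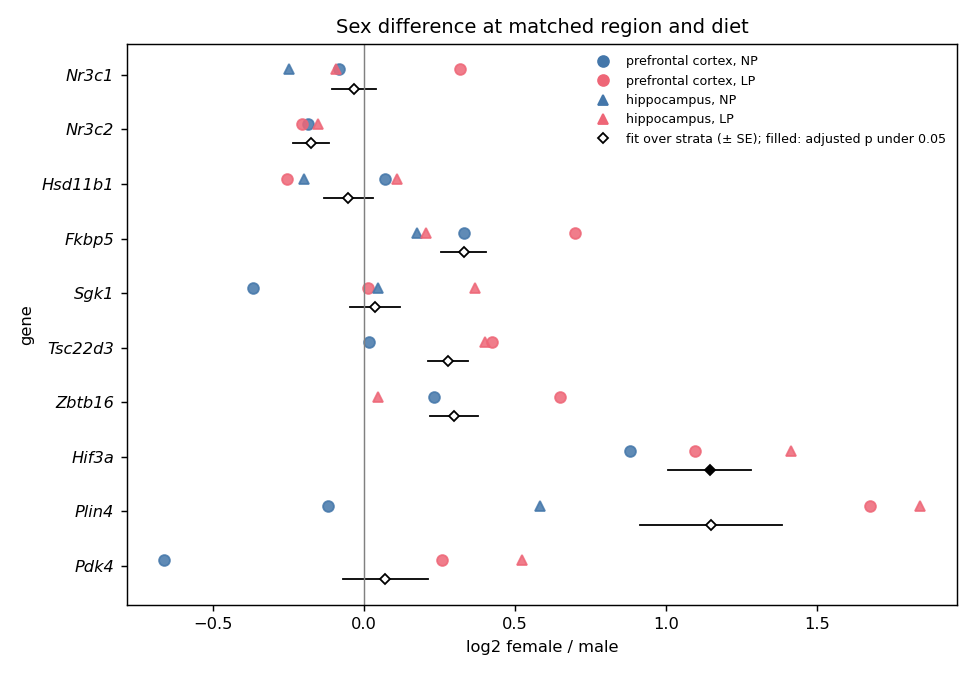
Log2 ratio of female to male for each gene at matched region and diet (horizontal axis; circles prefrontal cortex, triangles hippocampus, blue NP, red LP) and the fit over strata with its standard error (diamonds, filled where the adjusted p is under 0.05). Hif3a lies between 0.88 and 1.41 in all 3 measured strata, and the LP points of Plin4 stand at 1.68 and 1.84.

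Beside the members, 3 of 37 other glucocorticoid-induced genes were higher and 1 lower in females, where 0.229% of all genes were higher. Slc2a1 (0.33 ± 0.05, adjusted p = 0.0109), Klf15, a metabolic transcription factor gene (0.44 ± 0.08, adjusted p = 0.0165), and Map3k6 (1.01 ± 0.20, adjusted p = 0.0489) were higher. Dusp1, a phosphatase gene that neuronal activity also induces, was lower (-0.86 ± 0.15, adjusted p = 0.0306). Without any 1 of the LP libraries 0 of the 37 were higher, without either NP prefrontal library 5, and DESeq2 and the fit without a low-count filter each gave 1 higher and 0 lower. Map3k6 missed the threshold in every alternative fit run, including without any 1 library (lowest adjusted p 0.0518). Immediate early genes were lower in females in 10 of 20 cases and higher in 0, where 0.235% of all genes were lower. The count lower was 6 with DESeq2 and 6 without either NP prefrontal library. Summed immediate early markers were 1053 to 4075 CPM in females and 1479 to 4523 CPM in males. Their part in the sex differences was not tested.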

How the data were processed

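RNA was sequenced from TruSeq libraries made from 1 µg of total RNA. Per the submitters' processing notes, base calling used CASAVA, read checks FastQC 0.10.1 and alignment STAR 2.5.0a, with the mm10 build. The deposited values are unnormalised whole-number counts for Ensembl gene identifiers. Counting software, strandedness and gene models: not given in the sources used here. Of 47729 genes, 47224 matched GENCODE M21 (GRCm38), which gave names, coordinates and exon lengths.

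The members and all gene lists were chosen with earlier results of these data known. Differences were tested with the quasi-likelihood F test of edgeR 4.0.16 (R 4.3.3; TMM; filterByExpr with a minimum count of 10), adjusted by Benjamini-Hochberg over all genes tested, at 0.05. Diet was fitted over 5 strata of region and sex, and within regions by 1 diet coefficient each. Regions were fitted with sex and diet as additive terms, and sex over strata of region and diet. For 19598 genes, those beyond the last counted position or with no known position, the female NP hippocampus library was dropped from the fit. Such a gene was tested only with 2 or more residual degrees of freedom (1 where a pair or library was left out), and p-values were adjusted jointly with the 28131 remaining genes. Single pairs are log2 ratios of CPM with a prior count of 2, and intervals are exact 95% Poisson intervals, called separate where they do not overlap. They and the limit of 3 counts cover counting error only.

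Named were all 10 members, up to 4 genes per pathway list past the threshold with the smallest p, and for each member the 3 most alike genes by correlation. Beyond this rule, H6pd, Hsd11b2, Klf9, Mt2, Ddit4 and the marker genes were named after their values were seen. Marker lists covered neurons, astrocytes, oligodendrocytes, microglia, endothelium, mural and meningeal cells, choroid plexus, pituitary, blood and 5 regions. Alternatives were DESeq2 1.42.0, its size factors in edgeR, no low-count filter, the earlier edgeR method, library totals alone, a prior count of 0.5, and leaving out each pair or library. The fits were tested on simulated data, and figures were drawn with matplotlib 3.10.9 in Python 3.11.15.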

Additional observations from a re-analysis of the deposited data

Results flagged for a closer look

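Plin4 and Sgk1 stood out because every female pair differed between diets one way and every male pair the other way. For Plin4 the log2 ratio of LP to NP was 1.06 in female prefrontal cortex and 1.17 in female hippocampus. It was -0.67 in male prefrontal cortex, -0.073 in male hippocampus and -0.039 in hypothalamus. For Sgk1 it was 0.034 and 0.13 in the female prefrontal and hippocampus pairs, and -0.34, -0.19 and -0.18 in the male prefrontal, hippocampus and hypothalamus pairs. Counting intervals of LP and NP overlapped in every male pair for Plin4 and in the female prefrontal pair for Sgk1. Over the prefrontal and hippocampus pairs the female minus male difference was log2 1.45 ± 0.26 for Plin4 (edgeR, adjusted p = 0.0583) and 0.34 ± 0.09 for Sgk1 (adjusted p = 0.312), in a comparison chosen after these signs were seen. The other 5 members were not measured in the female hippocampus pair, so the same question could not be put to them in both regions.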

How the results depend on the processing

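Of 825 alternative values for single members, 752 kept direction and side of the threshold, 32 passed it newly, 6 no longer passed and 35 changed sign, all 35 when a pair or library was left out. Over the diet pairs the number of members called was 1 with DESeq2, 1 with DESeq2 size factors in edgeR and 0 to 2 when a pair was left out. It was 0 to 1 for diet in hippocampus, 0 to 2 for the female minus male difference of diet (1 with DESeq2 size factors) and 1 to 4 for sex. That female minus male comparison and the earlier edgeR method were chosen after seeing the data. Leaving out pairs turned the sign of small differences: over all pairs Nr3c1 ranged from -0.12 to 0.029, Pdk4 from -0.040 to 0.27 and Hsd11b1 from -0.075 to 0.034. In prefrontal cortex the ranges were Nr3c1 -0.36 to 0.042, Sgk1 -0.34 to 0.036, Plin4 -0.69 to 1.09 and Hsd11b1 -0.31 to 0.017. In hippocampus they were Sgk1 -0.19 to 0.12, Hsd11b1 -0.16 to 0.13 and Plin4 -0.073 to 1.17. For hippocampus minus prefrontal cortex they were Nr3c1 -0.12 to 0.27, Sgk1 -0.066 to 0.31, Plin4 -0.39 to 1.44, Fkbp5 -0.22 to 0.14 and Hsd11b1 -0.036 to 0.29, and for female minus male Hsd11b1 -0.22 to 0.23. Leaving out libraries gave Pdk4 -0.21 to 0.27 (hippocampus against prefrontal cortex) and Nr3c1 -0.059 to 0.28 (hypothalamus against hippocampus) between regions, and Pdk4 -0.19 to 0.40, Nr3c1 -0.14 to 0.034, Hsd11b1 -0.14 to 0.0085 and Sgk1 -0.10 to 0.16 for sex. The cause was not tested. Pairing by replicate number was not possible because the groups share only replicate number 1. The diet fit itself pairs LP with NP within each stratum of region and sex. Of the pathway genes' 1459 alternative values 1347 were unchanged in call, 112 no longer passed and 0 changed sign. These genes were taken because they passed in the main fit with the smallest p, so none could pass newly. Their counts are therefore not comparable with those of the members. Depth limits Plin4 and Hif3a most (36 to 243 and 69 to 176 counts), and 1 library per group leaves 3 or 4 residual degrees of freedom for diet over all pairs and 2 for the other diet comparisons.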

Other observations

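Marker genes of cell types that the report does not otherwise describe also differed between single libraries. Summed choroid plexus markers were 226 and 205 CPM in the male and female LP hippocampus libraries against 120 and 52.1 CPM in their NP partners, and Ttr, the transthyretin gene of choroid plexus, was 105 CPM in NP and 209 in LP in male hippocampus and 40.0 and 186 in female hippocampus. In the other 3 pairs Ttr was at 0.670 to 3.16 CPM, with LP lower in male prefrontal cortex and hypothalamus, so that its difference over all pairs (log2 1.36 ± 0.24, adjusted p = 0.0171) came from the hippocampus pairs. The pituitary hormone genes Gh and Prl had opposite directions in the male and female hippocampus pairs. The pituitary list did not share a direction within males: in hypothalamus 3 markers were higher and 4 lower in LP, of 7 with a mean of at least 1 CPM. Gh was 448 CPM in NP and 0.400 in LP in male hippocampus and 75.1 and 13.5 in hypothalamus, but 0.174 in NP and 5.26 in LP in female hippocampus. Prl was 103 CPM in NP and 0.160 in LP in male hippocampus, and 0 counts in NP and 4.17 CPM in LP in female hippocampus, so the lower LP values over all pairs (Prl log2 -4.16 ± 0.81, adjusted p = 0.0197, and Gh -3.81 ± 0.81, adjusted p = 0.0377) did not hold in the female pairs. Summed thalamic markers were 164 CPM in the female NP hippocampus library and 77.0 to 103 CPM in the other 3 hippocampus libraries. Microglial and astrocyte lists had 0 members past the threshold for diet (9 tested in each).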
